A study of Homo sapiens with 24 samples.

Results

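10 genes that the transcription factor p53 is known to switch on were followed across 24 Affymetrix arrays of human HAP1 cells: CDKN1A, MDM2, PMAIP1, BBC3, PPM1D, TIGAR, PLK2, PLK3, SESN1 and TP53INP1. They were chosen by symbol, with earlier results of these data known. All 10 were found among the 22109 genes with a probe set of their own, and all 10 passed the filter on dim genes that left 17339 genes tested. Each is read by 1 probe set that carries no other gene's symbol. HAP1 is a near-haploid line that was derived from the chronic myelogenous leukemia line KBM-7. The arrays fall into 3 arms: 6 arrays of cells given SA100 for 2 h, 9 of cells given lomustine at 200 µM for 2 h, and 9 of cells with no drug. The titles say SA100 while the agent field of the same arrays says lomustine; the treatment text describes sodium arsenite (NaAsO2) at 100 µM for 2 h, so the title set their arm and SA100 is read as arsenite. 6 lines run through every arm: S51A (whose eIF2-alpha, a translation initiation factor, lacks the serine that stress kinases phosphorylate), lines without the eIF2-alpha kinases HRI, GCN2, PKR or PERK, and the parental line PAR. All lines were bought as HAP1 derivatives, and what the mutation does in a line cannot be told apart from other properties of that line. S51A, HRI and PAR had 2 arrays each with lomustine and with no drug (repetitions A and B), and all other groups of line and arm had 1. The labels do not say whether repetitions are separate cultures, so the spread between them may be technical.

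The protein p53 is stabilized when DNA is damaged or when the ribosome is made incorrectly, and it then binds response elements in its target genes. CDKN1A (p21) stops the cell cycle, PMAIP1 (NOXA) and BBC3 (PUMA) promote apoptosis through the BCL2 family, and MDM2 and PPM1D (WIP1) feed back to restrain p53. Several of these genes also answer to other regulators, PMAIP1 for example to the stress factor ATF4. Lomustine is an alkylating and crosslinking chemotherapy drug, and arsenite is an oxidative and proteotoxic stress that activates HRI. HAP1 cells have been described as carrying an impaired p53, and neither the protein nor its gene was analysed here.

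The starts of 5 members are shown because a window of each held a motif that bears on p53 or on stress-responsive factors. The 250 bases before the start come from RefSeq (GRCh38.p14), which gave windows that were used for 9 of the 10 members; TP53INP1 is named only. Capitals mark the motif. In MDM2 it is a p53 site at a downstream start. Such a site is 2 adjacent half-sites with the C and G of both cores kept and at most 2 mismatches elsewhere. In the other members shown the motif is TGACGT or its reverse complement ACGTCA, the core of a cyclic AMP response element.
MDM2, chr12:68808767-68809016, plus strand: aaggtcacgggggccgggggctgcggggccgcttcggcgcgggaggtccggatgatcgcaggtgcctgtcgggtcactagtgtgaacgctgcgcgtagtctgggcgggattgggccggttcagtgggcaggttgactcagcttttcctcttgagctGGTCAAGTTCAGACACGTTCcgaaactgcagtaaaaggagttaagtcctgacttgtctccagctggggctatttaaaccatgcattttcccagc
PMAIP1, chr18:59899746-59899995, plus strand: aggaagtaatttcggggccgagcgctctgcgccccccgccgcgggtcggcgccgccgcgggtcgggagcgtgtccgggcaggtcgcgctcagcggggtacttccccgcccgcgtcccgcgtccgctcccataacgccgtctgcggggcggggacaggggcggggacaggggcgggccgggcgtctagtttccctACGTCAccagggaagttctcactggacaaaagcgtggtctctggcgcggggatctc
PPM1D, chr17:60599943-60600192, plus strand: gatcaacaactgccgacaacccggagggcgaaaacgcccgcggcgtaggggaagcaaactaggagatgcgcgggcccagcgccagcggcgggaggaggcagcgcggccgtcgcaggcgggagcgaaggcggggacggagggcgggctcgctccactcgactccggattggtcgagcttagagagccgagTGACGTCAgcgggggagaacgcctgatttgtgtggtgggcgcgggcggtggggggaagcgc
TIGAR, chr12:4320963-4321212, plus strand: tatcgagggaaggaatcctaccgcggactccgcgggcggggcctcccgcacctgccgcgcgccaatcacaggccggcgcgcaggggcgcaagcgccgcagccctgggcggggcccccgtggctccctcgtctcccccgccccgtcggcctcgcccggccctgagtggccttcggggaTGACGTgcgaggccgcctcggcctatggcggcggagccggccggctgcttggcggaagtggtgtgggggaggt
PLK2, chr5:58460087-58460336, minus strand: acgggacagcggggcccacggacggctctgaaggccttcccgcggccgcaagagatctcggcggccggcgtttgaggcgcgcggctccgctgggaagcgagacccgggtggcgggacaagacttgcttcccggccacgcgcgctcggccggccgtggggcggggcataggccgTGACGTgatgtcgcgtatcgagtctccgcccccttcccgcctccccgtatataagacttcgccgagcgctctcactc
The MDM2 site lies 94 bases before its start and has 2 mismatches. A p53 site of this kind was found in 2 of the 14 windows of the 9 members and in 0.285% of 35116 RefSeq windows of 300 bases. Those 2 windows are both of MDM2 and overlap. Letters outside the windows were not searched, so a site farther from a start would not be seen. TGACGT, searched on both strands, was found in 4 of the 14 windows of the 9 members, each of another member, and in 7.98% of all windows. In PMAIP1 it lies 56 bases before the start, in TIGAR 73 and in PLK2 77, and PPM1D has 2 overlapping matches. Both motifs were picked after the letters were seen, and a match is a description of the letters only.

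One array stood apart: in S51A lomustine B, 8.72% of probe sets lay over 1 log2 unit away from the other arrays' median, against 3.38% in PAR lomustine A and 3.11% in HRI without drug A. It was the lowest lomustine array for 5 of the 10 members. No pair of arrays was identical (r from 0.918 to 0.991). On average 5 of 7 epithelial markers reached the median of all values (2.42), with KRT8, KRT18 and EPCAM above it on all 24 arrays but CDH1 on 7 and CLDN4 on 2. Of the blood markers 4 of 7 reached it on average: HBE1 was there on 24 arrays, HBG1 on 20, SPI1 on 16 and CD14 on 13. CD34 reached it on 7 arrays, and HBG2 and PTPRC, the pan-leukocyte marker, on 0. The mean level of the blood list per array ran from 2.32 to 2.44 with SA100, 2.25 to 2.41 with lomustine and 2.28 to 2.52 without drug. The epithelial list ran from 2.81 to 3.03 with SA100, 2.77 to 3.34 with lomustine and 2.72 to 3.21 without drug, and the fibroblast list from 2.18 to 2.39, 2.23 to 2.41 and 2.15 to 2.36 in the same arms, with 1 of its 6 genes (COL1A1) at 2.42 or more on average. The ranges of the arms overlap in each list. Their part in the results was not tested. Array signals cannot tell fewer cells of a type from less RNA per cell. Values below are log2 signals, and 2.42 is a mark for dim genes, not a detection call.

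**Figure D1:**
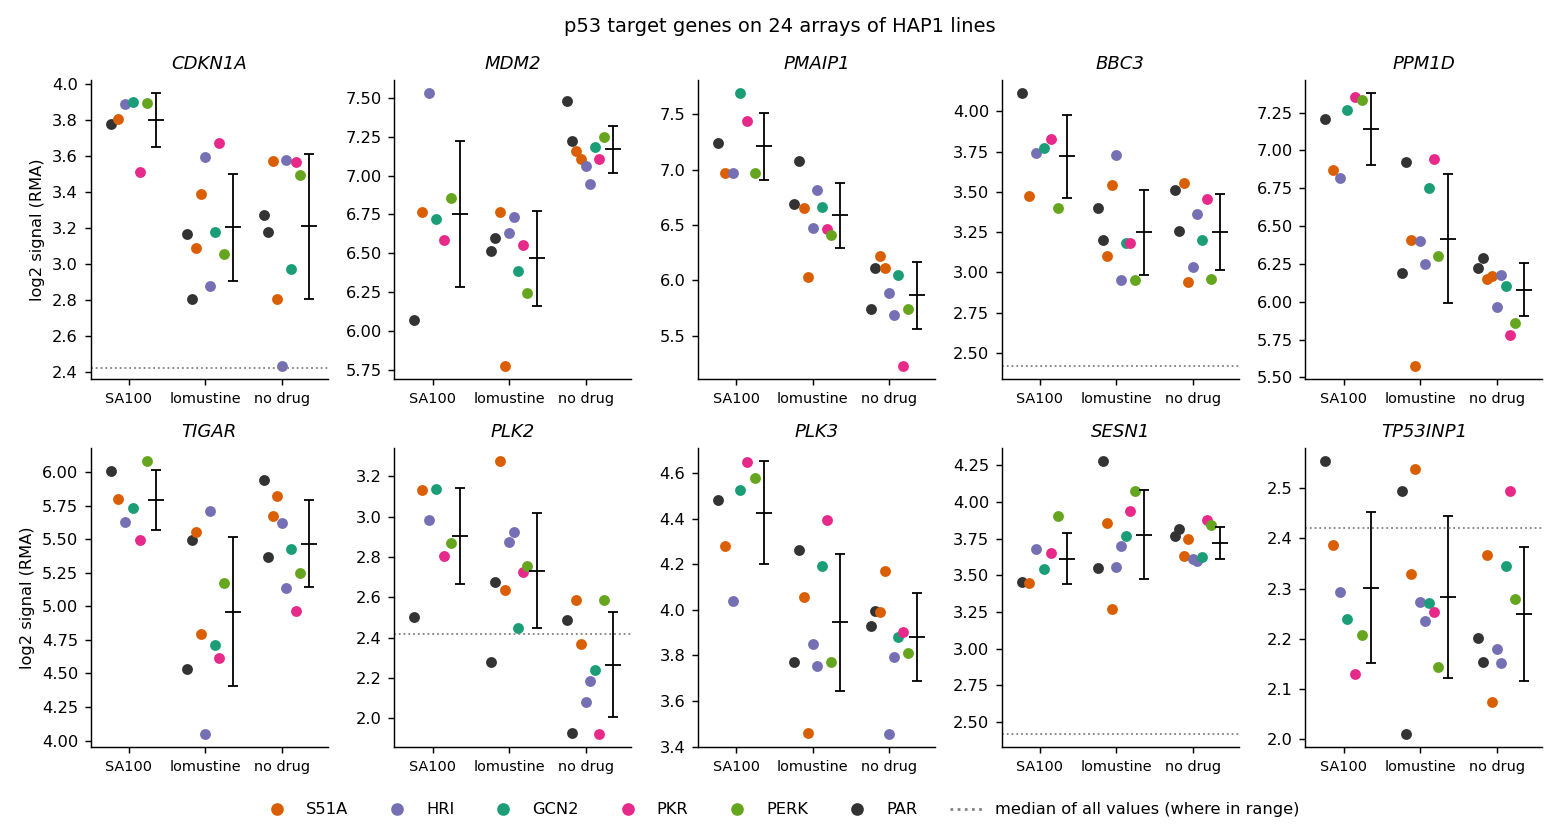
Log2 signal of each of the 10 p53 targets (vertical axis) on every array, with the SA100 arm left, lomustine in the middle and no drug right; points are coloured by line, and bars give mean and SD. The 9 lomustine arrays of MDM2 lie at or below 6.77 and the untreated ones at or above 6.94, and the 6 SA100 arrays of PMAIP1 lie at or above 6.97.

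The first comparison asked what lomustine did to the targets across the lines. With lomustine, 2 of the 10 members rose and 1 fell, while 0.248% of all 17339 genes rose and 0.779% fell (limma, adjusted p under 0.05). PMAIP1 and PLK2 rose and MDM2 fell. CDKN1A and BBC3 had a change near 0, while PMAIP1, like BBC3 a promoter of apoptosis, was among the risers. The median change was 0.04 over the members and -0.04 over all genes. The split of calls over all genes depends on scaling: 0.583% rose and 0.496% fell after quantile normalization again.

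MDM2, the ubiquitin ligase that marks p53 for degradation, gave 5.78, 6.55 and 6.77 (lowest, median, highest) with lomustine, against 6.94, 7.16 and 7.48 without drug. The arrays of the arms did not overlap, which held for 0.0923% of genes in the lower direction. All 6 lines were lower with lomustine, and MDM2 fell by 0.70 on the log2 scale (SE 0.15, limma adjusted p = 0.0228). The call is near its threshold: it was lost when any of 7 single arrays was left out (PAR without drug A or B, S51A without drug A, GCN2 or PERK without drug, GCN2 or PERK with lomustine), with changes from -0.69 to -0.65 and adjusted p from 0.0503 to 0.0673, and with arrays centred on their medians (-0.72, adjusted p = 0.0531).

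PMAIP1 gave 6.03, 6.66 and 7.08 with lomustine, against 5.23, 5.89 and 6.22 without drug. The arrays overlapped only through S51A lomustine B, the lowest of the lomustine arrays. PMAIP1 rose by 0.72 (SE 0.13, adjusted p = 0.00744) and was higher in 6 of 6 lines, and without S51A lomustine B the change was 0.80 (adjusted p = 0.00101). No single array removed the call, but the adjusted p was 0.108 without the line PAR and 0.0634 without the line HRI.

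PLK2, a polo-like kinase, gave 2.28, 2.73 and 3.28 with lomustine, against 1.93, 2.24 and 2.59 without drug. Only 3 of the 9 untreated arrays reached 2.42, so its level without drug is dim. PLK2 rose by 0.47 (SE 0.11, adjusted p = 0.0463) and was higher in 6 of 6 lines. Leaving out any of 17 of the 24 arrays took the adjusted p past 0.05 (0.0559 to 0.106), as did quantile normalization again (0.0749) and arrays centred on their medians (0.119). The 7 arrays whose removal kept the call were PAR without drug A, PERK without drug, PAR lomustine A, S51A lomustine B, GCN2 with lomustine, and PAR and GCN2 with SA100.

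The other 7 members did not pass. CDKN1A, the p21 cell-cycle inhibitor, had a difference of -0.01 (95% interval -0.32 to 0.31), and BBC3, a promoter of apoptosis, one of -0.00 (-0.24 to 0.23). The CDKN1A mean was 3.20 (SD 0.30) with lomustine and 3.21 (SD 0.40) without drug. For BBC3 it was 3.25 (SD 0.26) and 3.25 (SD 0.24). Untreated CDKN1A repetitions A and B gave 2.43 and 3.58 in HRI, 3.57 and 2.80 in S51A, and 3.27 and 3.18 in PAR. The intervals leave room for a modest change of either sign. PPM1D, the WIP1 phosphatase that dampens p53, gave 0.34 (SE 0.14, adjusted p = 0.259, higher in 5 of 6 lines). With PAR lomustine A and S51A lomustine B both left out it passed (0.51, adjusted p = 0.0254), as it did on all arrays after quantile normalization again (0.50, adjusted p = 0.00835). TIGAR, which limits glycolysis, gave -0.51 (SE 0.18, adjusted p = 0.187, lower in 6 of 6 lines), and it passed without HRI lomustine B (-0.64, adjusted p = 0.0478). HRI lomustine B, at 5.71 for TIGAR, lay above both untreated HRI arrays (5.62 and 5.14), so leaving it out removed an array that opposed the change. PAR lomustine B (5.50) also lay above PAR without drug B (5.37), and in S51A both lomustine arrays lay below both untreated ones. The changes of PLK3, SESN1 and TP53INP1 were 0.06, 0.05 and 0.03. Over the 24 arrays SESN1 stayed between 3.27 and 4.28, and TP53INP1 between 2.01 and 2.55, mostly under 2.42.

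**Figure D2:**
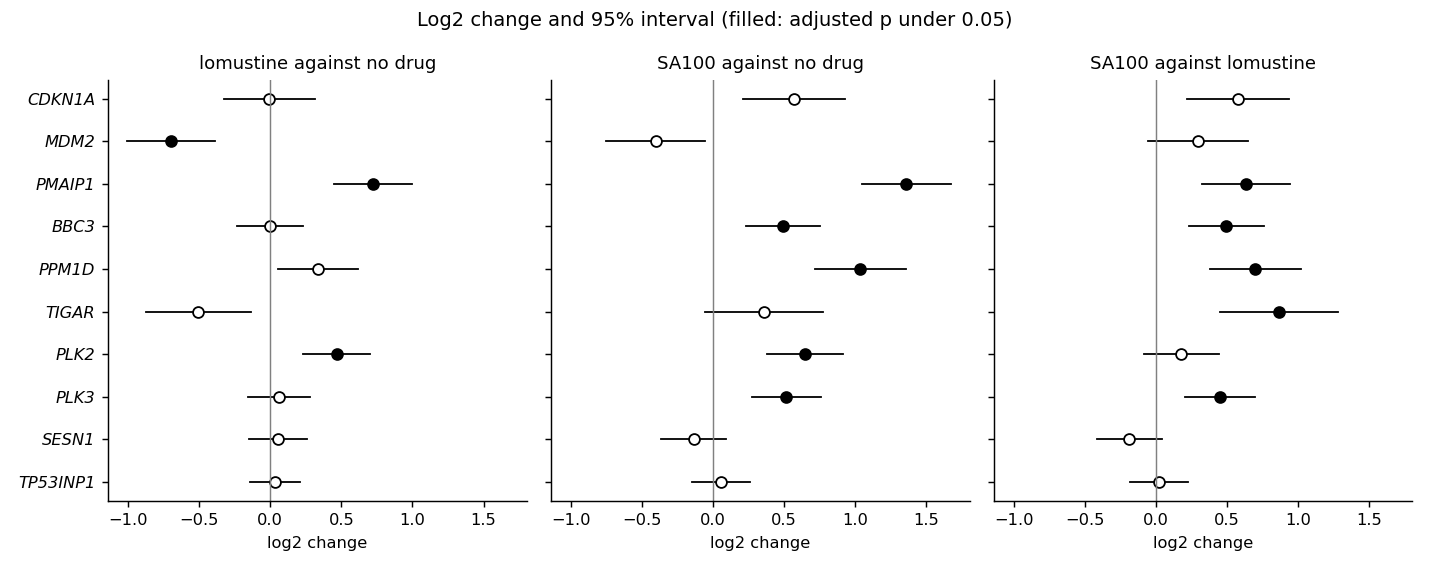
Log2 change of each p53 target (points, with 95% intervals) in 3 panels, lomustine and SA100 each against no drug, then SA100 against lomustine; filled points passed at an adjusted p under 0.05 over 17339 genes. PMAIP1 is filled in all 3 panels, and CDKN1A, SESN1 and TP53INP1 in none.

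The second comparison asked what SA100 did. Of the 10 members 5 rose and 0 fell with SA100, while 2.11% of all genes rose and 0.952% fell; after each array was centred on the median of the tested genes, a scaling chosen after seeing the data, these were 1.68% and 2.8%, and 4 members were higher, with BBC3 no longer past the test (0.43, adjusted p = 0.0714). The risers were PMAIP1, PPM1D, PLK2, PLK3 and BBC3. The median change was 0.50 over the members and 0.04 over all genes. The comparison shares its untreated arrays with the lomustine one.

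PMAIP1 gave 6.97, 7.11 and 7.69 with SA100, against 5.23, 5.89 and 6.22 without drug. The arms did not overlap, as for 1.11% of genes in the higher direction, and PMAIP1 rose by 1.36 (2.57-fold, SE 0.15, adjusted p = 4.51e-06). PPM1D gave 6.82, 7.24 and 7.35 with SA100, against 5.78, 6.15 and 6.29 without drug. It was the second member whose arms did not overlap, and it rose by 1.04 (2.05-fold, SE 0.15, adjusted p = 0.000269). Both were higher in 6 of 6 lines and passed in all 39 alternatives.

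The polo-like kinases rose too. PLK2 gave 2.50, 2.93 and 3.14 with SA100, against 1.93, 2.24 and 2.59 without drug, a change of 0.65 (SE 0.13, adjusted p = 0.00538, 6 of 6 lines). PLK3, which acts in stress and cell-cycle checkpoints, gave 4.04, 4.51 and 4.65 with SA100, against 3.46, 3.90 and 4.17 without drug, a change of 0.52 (SE 0.12, adjusted p = 0.0186, 6 of 6 lines). BBC3 gave 3.40, 3.76 and 4.11 with SA100, against 2.94, 3.26 and 3.55 without drug, a change of 0.49 (SE 0.13, adjusted p = 0.0361, 6 of 6 lines). For these 3 genes the arms overlapped. PLK3 lost its call without any of 5 arrays (GCN2 or PKR without drug, and GCN2, PKR or PERK with SA100, highest adjusted p = 0.0732) and with arrays centred on their medians (adjusted p = 0.074), and BBC3 without any of 11 (highest adjusted p = 0.109). Those 11 were PAR B, S51A B, HRI A, GCN2, PKR and PERK without drug, and every SA100 array but S51A. The BBC3 change then ran from 0.43 to 0.52. Leaving out any of the lines PAR, HRI, GCN2, PKR or PERK also ended the calls of both PLK3 and BBC3. The adjusted p then reached 0.0955 for PLK3 and 0.151 for BBC3.

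CDKN1A gave 3.51, 3.85 and 3.90 with SA100, against 2.43, 3.27 and 3.58 without drug. Its change of 0.57 (SE 0.17, adjusted p = 0.0828) did not pass. In 5 of 6 lines it was higher; PKR was the exception at -0.06, and without that SA100 array the change was 0.69 (adjusted p = 0.0486). CDKN1A also passed on all arrays after quantile normalization again (0.54, adjusted p = 0.0473). MDM2 gave 6.07, 6.74 and 7.53 with SA100, against 6.94, 7.16 and 7.48 without drug, and its spread between lines was wide. Its change of -0.40 (SE 0.17, adjusted p = 0.222) ran from -1.28 in PAR to 0.53 in HRI. TIGAR gave 0.36 (adjusted p = 0.386, higher in 6 of 6 lines), SESN1, a sestrin that restrains mTORC1, -0.14 and TP53INP1, a stress-induced nuclear protein, 0.06.

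The third comparison set the treatments against each other. With SA100 against lomustine, 5 members were higher and 0 lower, while 5.48% of all genes were higher and 0.473% lower (3.71% and 1.89% after quantile normalization again). TIGAR gave 5.49, 5.76 and 6.08 with SA100, against 4.05, 4.80 and 5.71 with lomustine, and the difference was 0.86 (SE 0.20, adjusted p = 0.0136). TIGAR passed here although it passed against no drug with neither treatment. Its lomustine repetitions A and B gave 4.05 and 5.71 in HRI, 4.54 and 5.50 in PAR, and 5.55 and 4.80 in S51A. The TIGAR call was lost with only the arrays of these arms in the fit (0.85, adjusted p = 0.0935). It was also lost without the line GCN2, PKR or PERK (0.84 to 0.86). No single array removed it, but the adjusted p reached 0.0499. PPM1D differed by 0.70 (SE 0.15, adjusted p = 0.00977), PMAIP1 by 0.64 (adjusted p = 0.0152), BBC3 by 0.49 (adjusted p = 0.0235) and PLK3 by 0.45 (adjusted p = 0.0261). The arms overlapped for each of these 5 genes. CDKN1A, with a difference of 0.58 (SE 0.17) in the same direction in 5 of 6 lines, had an adjusted p of 0.0518, and PLK2 one of 0.18 (95% interval -0.08 to 0.44). The median difference was 0.47 over the members and 0.08 over all genes. With only the arrays of these arms in the fit, 1 member passed. Leaving out 1 array removed the call of PMAIP1 (GCN2 or PKR with SA100, 0.53 to 0.57), of PLK3 (PERK with lomustine, or GCN2, PKR or PERK with SA100, 0.40 to 0.45) and of BBC3 (PKR with lomustine, or any SA100 array but S51A, 0.43 to 0.50). CDKN1A passed without any 1 of 7 arrays (S51A without drug B, HRI without drug A or B, S51A lomustine B, HRI lomustine A, PKR with lomustine, PKR with SA100), with differences from 0.57 to 0.70 and adjusted p from 0.0218 to 0.0483.

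**Figure D3:**
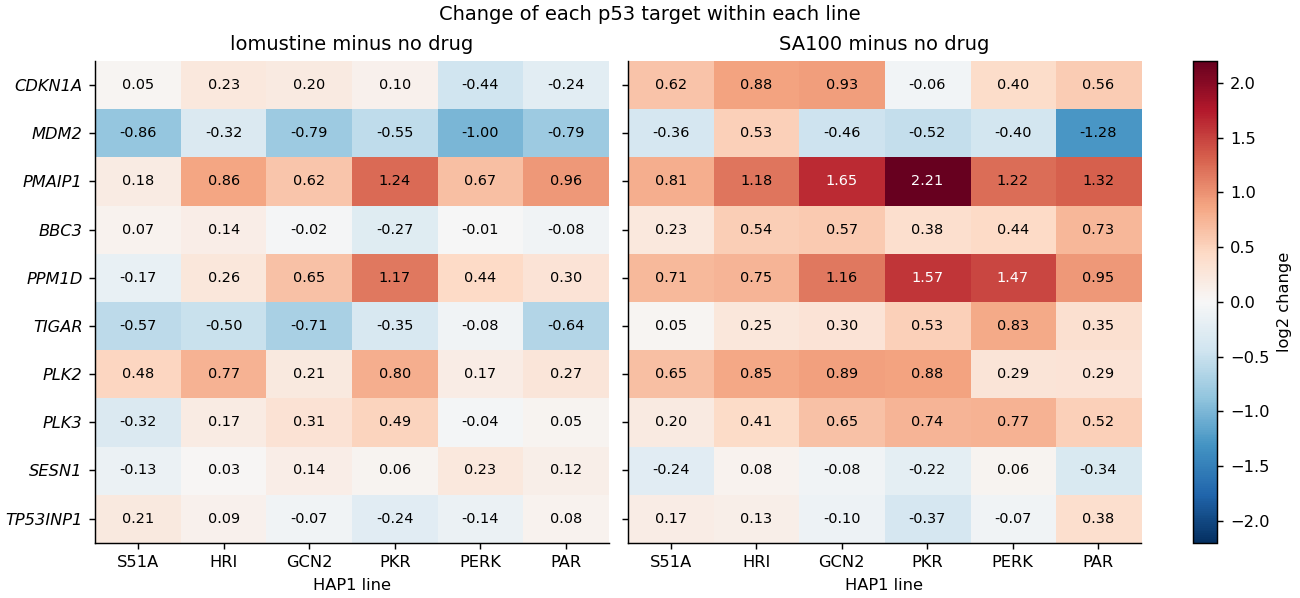
Log2 change of each p53 target (rows) within each line (columns; S51A, HRI and PAR averaged over repetitions where there are 2), for lomustine and for SA100 minus no drug; red is higher and blue lower with treatment. PMAIP1 is red in all 12 cells, from 0.18 (S51A, lomustine) to 2.21 (PKR, SA100).

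The lines were then compared. In S51A, PMAIP1 gave 6.66 and 6.03 with lomustine, against 6.22 and 6.11 without drug, and these overlapped. In PAR it gave 6.69 and 7.08 with lomustine, against 5.74 and 6.11 without drug, and in HRI 6.48 and 6.82 with lomustine, against 5.89 and 5.69 without drug. The change in S51A minus that in PAR was -0.78 (SE 0.39, unadjusted p = 0.0702, adjusted p = 1), so the lines were not shown to differ. Without S51A lomustine B the change in S51A was 0.49 and the difference -0.46 (adjusted p = 1), and without S51A lomustine A the difference was -1.09 (adjusted p = 0.393). MDM2 was lower with lomustine on both arrays in each of these 3 lines: 6.77 and 5.78 with lomustine against 7.16 and 7.11 without drug in S51A, 6.63 and 6.74 with lomustine against 7.06 and 6.94 without drug in HRI, and 6.52 and 6.60 with lomustine against 7.48 and 7.22 without drug in PAR. Within single lines limma called 0 members with lomustine (0% of genes were called in PAR, 0.0115% in S51A and 0% in HRI), with 2 members in PAR, 1 in S51A and 2 in HRI at an unadjusted p under 0.05 (2.9%, 4.08% and 1.49% of all genes). The differences between lines in that change called 0 members (0% of genes in either), and 0 at an unadjusted p under 0.05 (0.629% of genes for S51A and 0.894% for HRI).

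Averaged over the arms, limma called 0 members between any line and PAR, where 2.18% (S51A), 0.144% (HRI), 0.0692% (GCN2), 0% (PKR) and 0.179% (PERK) of genes were called. At an unadjusted p under 0.05 there was 1 member each for S51A (PLK2, 0.43, adjusted p = 0.217), HRI (PLK3, -0.31, adjusted p = 0.601) and PERK (BBC3, -0.46, adjusted p = 0.689), and 0 for GCN2 and PKR. The shares of all genes at that p were 9.74% for S51A, 7.61% for HRI, 5.63% for PERK, 4.08% for GCN2 and 3.03% for PKR, so 1 of 10 is near the background for the lines with a member. The intervals were wide: for PMAIP1 in S51A against PAR -0.54 to 0.19, and for MDM2 -0.48 to 0.35.

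The rest of the pathway was read through a list of other targets and a list of regulators. Both lists were chosen with earlier results of these data known. Of 30 other known targets, 28 were tested: with lomustine 1 rose, SESN2 (0.248% of all genes rose), and with SA100 3 rose, SESN2, GADD45A and TNFRSF10B (2.11% of all genes). SESN2 (a sestrin, also an ATF4 target) gave 5.79, 7.57 and 8.03 with SA100 and 4.62, 6.65 and 7.11 with lomustine, against 4.05, 4.77 and 5.20 without drug. With SA100 against lomustine 4 of the 28 were higher, beside 5.48% of all genes. They were GADD45A, a growth-arrest gene, by 0.90 (adjusted p = 0.00135), SESN2 by 0.85 (adjusted p = 0.0166), the death receptor TNFRSF10B by 0.72 (adjusted p = 0.000559) and AEN, an exonuclease, by 0.39 (adjusted p = 0.0205). AEN did not pass against no drug with SA100 (0.11, adjusted p = 0.623). The median changes of these targets were -0.11 with lomustine, 0.11 with SA100 and 0.19 between them. ZMAT3, a p53-induced RNA-binding protein, gave -0.52 with lomustine (adjusted p = 0.0947). Of 20 regulators of p53, 16 were tested and limma called 0 in each comparison (4 with lomustine, 6 with SA100 and 2 between them at an unadjusted p under 0.05, where 14.2%, 16.5% and 21.1% of all genes lay). USP7, a deubiquitinase of MDM2 and p53, gave -0.32 (lomustine, adjusted p = 0.133) and -0.40 (SA100, adjusted p = 0.0561), CREBBP, an acetyltransferase, -0.44 (SA100, adjusted p = 0.0695) and -0.28 (SA100 against lomustine), DYRK2, a p53 kinase, -0.23 with lomustine, and KAT5 0.31 with SA100 against lomustine (adjusted p = 0.0524).

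**Figure D4:**
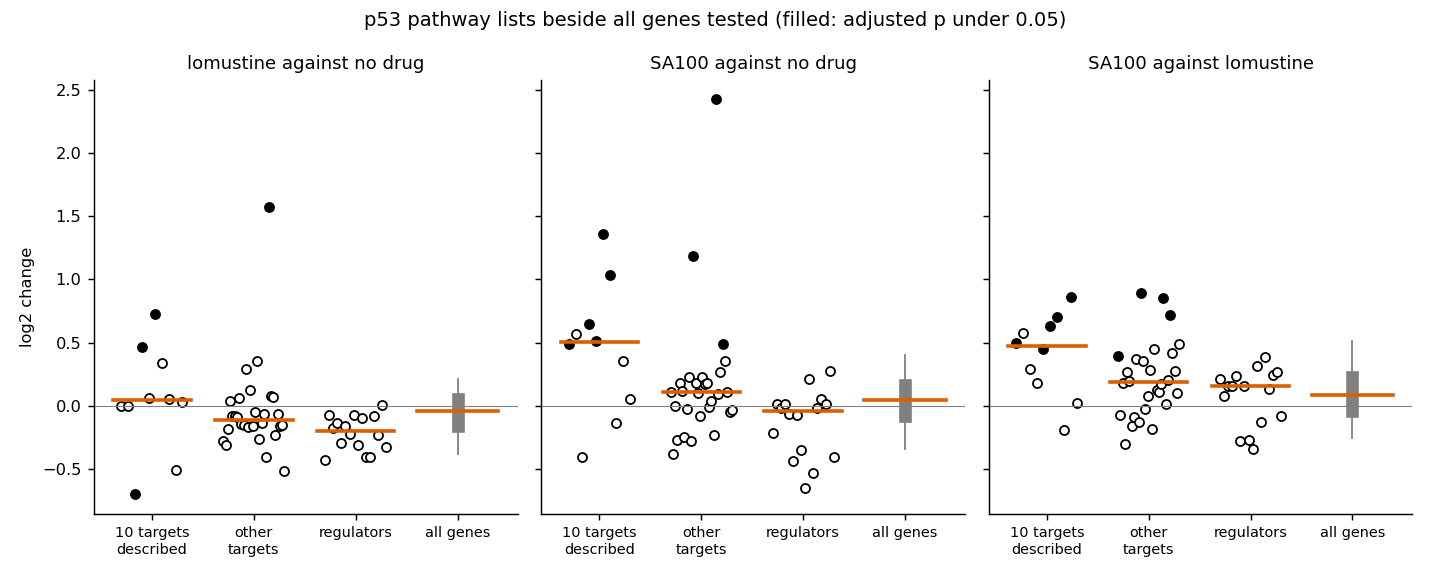
Log2 change of the 10 targets described, 28 other p53 targets and 16 regulators (points; filled where adjusted p is under 0.05) beside all genes tested (box from the first to the third quartile, whiskers from the 5th to the 95th percentile), with medians as lines, in the 3 comparisons. The regulators hold no filled point.

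Over the 18 groups of line and arm, PMAIP1 was most like MXD1, a MAX partner (r = 0.942), IER2, an immediate-early gene (0.931), and BAG3, a co-chaperone (0.920). CDKN1A was most like KIF25-AS1 (0.916), CIDEB (0.890) and CYTH1 (0.855), and MDM2 most like FUBP1 (0.929), VPS13D (0.927) and LMBR1 (0.925). These r share arms and lines over the same 18 points and carry no test. Among the 45 pairs of members the median r was 0.22; PPM1D with PLK3 (0.914) and PMAIP1 with PPM1D (0.896) were the highest, MDM2 with PMAIP1 gave -0.44, and BBC3 with SESN1 was lowest (-0.59).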

How the data were processed

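Per the labels' processing notes, the authors processed the arrays with RMA and affy, without versions, and the deposited table holds log2 signal values of 53617 probe sets for 24 arrays. Arrays give no read depth; their number limits precision. Of 25713 annotated probe sets, 23558 carried 1 symbol, and the probe set with the highest mean stood for a gene. Genes entered the test when 2 or more arrays reached 2.42, the median of all values. limma 3.58.1 in R 4.3.3 was fitted to arm and line over 24 arrays (16 residual degrees of freedom), and to 18 group means (6 residual degrees of freedom, 12 groups of 1 array assumed to vary like the duplicated ones). P-values are two-sided, adjusted by Benjamini-Hochberg over 17339 genes (threshold 0.05). Members and lists were chosen with earlier results of these data known. Named genes are all members, the list members with the smallest adjusted p past the test (or 2 with the smallest p), and the 3 genes most correlated with CDKN1A, MDM2 and PMAIP1. The fit was tested on simulated data. Alternatives covered filters, probe sets, normalization, variance prior, samples, lines, single arrays and a replicate block.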

Additional observations from a re-analysis of the deposited data

Results flagged for a closer look

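CDKN1A in the SA100 arm had 1 array set apart relative to a narrow range. PKR with SA100 gave 3.51, while the nearest of the other 5 arrays gave 3.78. That gap is 0.69 of the arm's range, above the 95% critical value of Dixon's test. The SD of CDKN1A was 0.15 with SA100 and 0.40 without drug, where HRI gave 2.43 and 3.58 and no array was flagged. Chance flags about 1 in 20 groups, and 30 groups were examined, with this 1 flag.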

How the results depend on the processing

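No member value changed sign where the reported or alternative unadjusted p was under 0.05. With lomustine, the 2 higher members became 1 with no filter, with arrays centred on their medians, with only the arms compared, with the replicate block, and without S51A, GCN2, PKR or PERK, and 0 without PAR or HRI; leaving out single arrays gave 1 to 2. After quantile normalization again the count stayed at 2, with PLK2 lost (adjusted p = 0.0749) and PPM1D gained (0.00835). The 1 lower member became 0 with arrays centred on their medians and without PAR, S51A, GCN2, PKR or PERK; single arrays gave 0 to 2. The 5 higher members with SA100 against no drug became 3 without PAR, HRI, GCN2, PKR or PERK, with PLK3 and BBC3 lost each time. Single arrays gave 3 to 5. Scaling gave 4 with arrays centred on their medians (PLK3 lost, adjusted p = 0.074), 4 with centring on the tested genes (BBC3 lost, 0.0714) and 6 after quantile normalization again (CDKN1A gained, 0.0473). The 5 higher with SA100 against lomustine became 1 with only the arms compared, 3 without PAR, 1 without GCN2 and 0 without PERK; single arrays gave 2 to 6. It became 4 with arrays centred on their medians (PLK3 lost, 0.0746) and 4 with centring on the tested genes (BBC3 lost, 0.0971). Leaving out a line also removes samples. In S51A alone the 0 members became 0 to 1 (MDM2, -1.35, adjusted p = 0.0228, without lomustine A). Whether letters A and B pair the arrays was not settled. The r of A minus B between arms, across genes, was 0.334 in PAR, -0.388 in S51A and -0.561 in HRI. The main fits did not use the letters, and the replicate block changed no other count. Over all genes, calls with lomustine were 43 higher and 135 lower, 101 and 86 after quantile normalization again, and 31 and 60 with arrays centred on their medians; over 40 alternatives they ran from 25 to 101 higher and 25 to 274 lower. With SA100 they were 365 and 165, and 292 and 485 after centring on the tested genes, an alternative chosen after seeing the data (161 to 724 higher and 37 to 485 lower over 39 alternatives). SA100 against lomustine gave 950 and 82, and 643 and 328 after quantile normalization again (305 to 1158 higher and 15 to 384 lower). Arrays give no depth; their number limits the precision, and PLK2 without drug and TP53INP1 lie near the dim end of the signal.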
